A study of Mus musculus with 2 samples.

Results

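The miRNAs described here are 6 mature mouse miRNAs linked to metabolism and fat cells: miR-103-3p, miR-107-3p, miR-378a-3p, miR-378a-5p, miR-193b-3p and miR-365-3p. They were chosen by name, with all of their probes, and make up 6 of the 1881 mouse miRNAs on the array. The study compared femurs from ovariectomised (OVX) animals, whose ovaries had been removed, with femurs from sham-operated ones; all were female C57BL/6 mice aged 9 months. Marrow and bone were homogenised together, and each group was 1 pooled RNA sample of 4 mice on 1 single-colour Agilent miRNA array. The time from surgery to collection is not given in the sources used here. With 1 array per group there is no replicate check and no p-value. "Higher" and "lower" below describe 2 arrays. Each SD printed is the spread among replicate spots on 1 array. Each spot SE is the standard error of a difference, from the replicate spots of both arrays.

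A miRNA is a short RNA that pairs with messenger RNAs, mainly through its bases 2 to 8 (the seed), and lowers their output. miR-103 and miR-107 lie inside genes of pantothenate kinases, the enzymes that open coenzyme A synthesis, and are known to act on insulin sensitivity through caveolin-1 in fat cells and liver. miR-378a lies inside Ppargc1b, which encodes a coactivator of mitochondrial metabolism, and is known from fat cells, muscle and energy balance. miR-193b and miR-365 are made from neighbouring hairpins and are known for their part in brown fat cells. Bone marrow holds fat cells beside blood-forming cells, and estrogen loss is known to go with more marrow fat.

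The mature sequences are shown because they set which members share a seed and how far the probes can separate them. They come from RefSeq (GRCm38.p6), which matched 4 of the 6 members by name, and the seed is in capitals.
mmu-miR-103-3p: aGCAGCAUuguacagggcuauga
mmu-miR-107-3p: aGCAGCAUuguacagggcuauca
mmu-miR-193b-3p: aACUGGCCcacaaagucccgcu
mmu-miR-365-3p: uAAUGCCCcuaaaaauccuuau
miR-103-3p is encoded at chr2:131288103-131288125 (plus strand, inside Pank2) and at chr11:35782447-35782469 (plus strand, inside Pank3). miR-107-3p is encoded at chr19:34820700-34820722 (minus strand, inside Pank1). Both share the seed GCAGCAU and differ by 1 substitution, G22C, counted from the 5′ end of miR-103-3p. miR-193b-3p lies at chr16:13449570-13449591 (plus strand), in the same long non-coding gene, Gm32817, as the Mir365-1 copy of miR-365-3p at chr16:13453895-13453916 (plus strand). The other copy of miR-365-3p, Mir365-2, lies at chr11:79726467-79726488 (plus strand).

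The probes are shown because miR-103-3p and miR-107-3p are told apart by a single base near the probe's 5′ end, given here in capitals.
miR-103-3p probe of 18 bases: tCatagccctgtacaatg
miR-103-3p probe of 17 bases: tCatagccctgtacaat
miR-107-3p probe of 20 bases: tGatagccctgtacaatgct
miR-107-3p probe of 19 bases: tGatagccctgtacaatgc
Counted from the probe's 5′ end, the probes differ by C2G. Each probe of one miRNA pairs with the other with 1 mismatch. The longer miR-103-3p probe covers bases 6 to 23 of the miRNA and the longer miR-107-3p probe bases 4 to 23, so each leaves out the start of the seed. How much either set of probes reads the other miRNA was not tested.

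The arrays as a whole differed in brightness. A probe counted as well above background if more than 50% of its usable spots carried that flag, and a miRNA was called measured when a probe met this on both arrays. This held for 197 of the 1881 miRNAs (10.5%). At the 75th percentile of the probes that passed on both, the OVX array was 2.02-fold brighter, so each array was scaled to this percentile and differences are relative to the other miRNAs. Blood-cell miRNAs expected in marrow were measured: all 4 red-cell markers, with differences from -0.71 to 0.97 (median 0.56), 3 of 4 myeloid markers, from -0.63 to 1.08 (median 0.63), and all 4 lymphoid markers, from -0.36 to 1.43 (median 0.0077). The summed myeloid signal was 71.5 times the scaling percentile in sham and 52.6 in OVX, and miR-223-3p, its brightest member, was at -0.63. Both cartilage markers (median -0.16) and 1 of 2 endothelial markers (0.77) were measured too, and no defining miRNA of fat cells alone was on these lists.

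Of the 6 members, 3 were measured: miR-103-3p, miR-107-3p and miR-378a-3p. All 3 were lower in OVX than in sham after scaling and brighter on the OVX array before it. The median of all measured miRNAs also lay below 0 after scaling (-0.04) and above 0 before it (0.97). miR-103-3p had 0.746 of its sham level (log2 difference -0.42, spot SE 0.05), miR-107-3p 0.742 (-0.43, spot SE 0.04) and miR-378a-3p 0.620 (-0.69, spot SE 0.05). Only miR-378a-3p was at least 1.5-fold lower, 1 of 3 measured members, where 14.7% of all measured miRNAs were. None of the 3 was at least 1.5-fold higher (11.2% of all) or at least 2-fold lower (2.03% of all). miR-378a-5p, miR-193b-3p and miR-365-3p were not well above background on either array, so no fold is given for them.

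The direction rests on the scaling. Without scaling the differences were 0.59 for miR-103-3p, 0.58 for miR-107-3p and 0.32 for miR-378a-3p, while the median of all measured miRNAs was 0.97. After scaling to the control probes they were 0.21, 0.20 and -0.06, with a median of all of 0.59. Relative to the median of all, which these scalings shift by the same amount as the members, they were -0.38, -0.39 and -0.65 in each case. The median of all measured miRNAs was -0.04 as reported.

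miR-103-3p gave bright signals on both arrays. Its 18-base probe had a processed signal, the spot brightness after background subtraction, of 205 to 290.5 over the sham spots (median 265, mean 256 ± 23.9, SD of 15 spots). On the OVX array the same probe ran from 267 to 437 (median 400.2, mean 386 ± 48.1, SD of 14 spots). The OVX spots were brighter as a group, and only the lowest of them lay within the sham range. The 17-base probe ran from 64.5 to 116 on the sham array (median 97.7) and from 104 to 162 on the OVX array (median 151). After scaling, the differences of the 2 probes were -0.42 and -0.43. The probe that is longer by 1 base was brighter on both arrays, and both gave nearly the same difference.

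miR-107-3p, made from the Pank1 gene, followed miR-103-3p. Its 20-base probe ran from 147 to 184 on the sham array (median 163, mean 164 ± 10.6, SD of 13 spots). On the OVX array it ran from 207 to 273 (median 254, mean 248 ± 17.6, SD of 15 spots). This was the 1 measured member probe whose unscaled spots did not overlap between the arrays. Before scaling the OVX array was 2.02-fold brighter at the scaling percentile, and probes without overlap were not counted over the whole array. The 19-base probe ran from 36.2 to 62.6 on the sham array (median 50.3) and from 48.5 to 85.7 on the OVX array (median 75.2). Its difference after scaling was -0.45, against -0.41 for the 20-base probe.

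The difference of miR-103-3p minus that of miR-107-3p was 0.0084 (spot SE 0.06), well inside the error between spots. The sequences differ by a single base, and whether these are 2 independent readings was not tested. miR-103-3p is summed over its 2 genes, Mir103-1 and Mir103-2, which the mature sequence cannot separate. Their opposite arms, miR-103-1-5p and miR-107-5p, had highest probe signals of 0.09 and -1.12 (sham) and 0.14 and -1.22 (OVX), the level of the negative controls.

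miR-378a-3p was dim, close to the level at which a probe counts as measured. Its 13-base probe ran from 15.3 to 28.9 on the sham array (median 24.0, mean 23.5 ± 3.48, SD of 15 spots). On the OVX array it ran from 19.2 to 35.0 (median 29.3, mean 28.3 ± 4.08, SD of 15 spots). The 14-base probe ran from 23.9 to 31.6 on the sham array (median 27.8) and from 29.0 to 44.0 on the OVX array (median 36.9). Spots of both probes overlapped between the arrays, and the lowest probe signal counted as well above background was 17.8 (sham) and 19.3 (OVX). After scaling the probes differed by -0.74 and -0.64, both lower in OVX. With the mean of the negative control spots subtracted from each signal, an alternative chosen after seeing the data, miR-378a-3p was at -0.65.

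miR-378a-3p was lower than miR-103-3p in its difference by 0.27 (spot SE 0.07) and lower than miR-107-3p by 0.26 (spot SE 0.06). These gaps exceed the error between spots, which holds no variation between mice. Over the 6 probes of the 3 measured members, 84 pairs of usable spots lay at the same position of both arrays. The OVX spot was the brighter one in 80 of the 84 before scaling, and the lower one in 83 of the 84 after it. At the scaling percentile the OVX array was 2.02-fold brighter, and without scaling 78.7% of all measured miRNAs were at least 1.5-fold higher. Spots on 1 pair of arrays are not replicates of the groups, and the same count was not made over all probes.

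**Figure D1:**
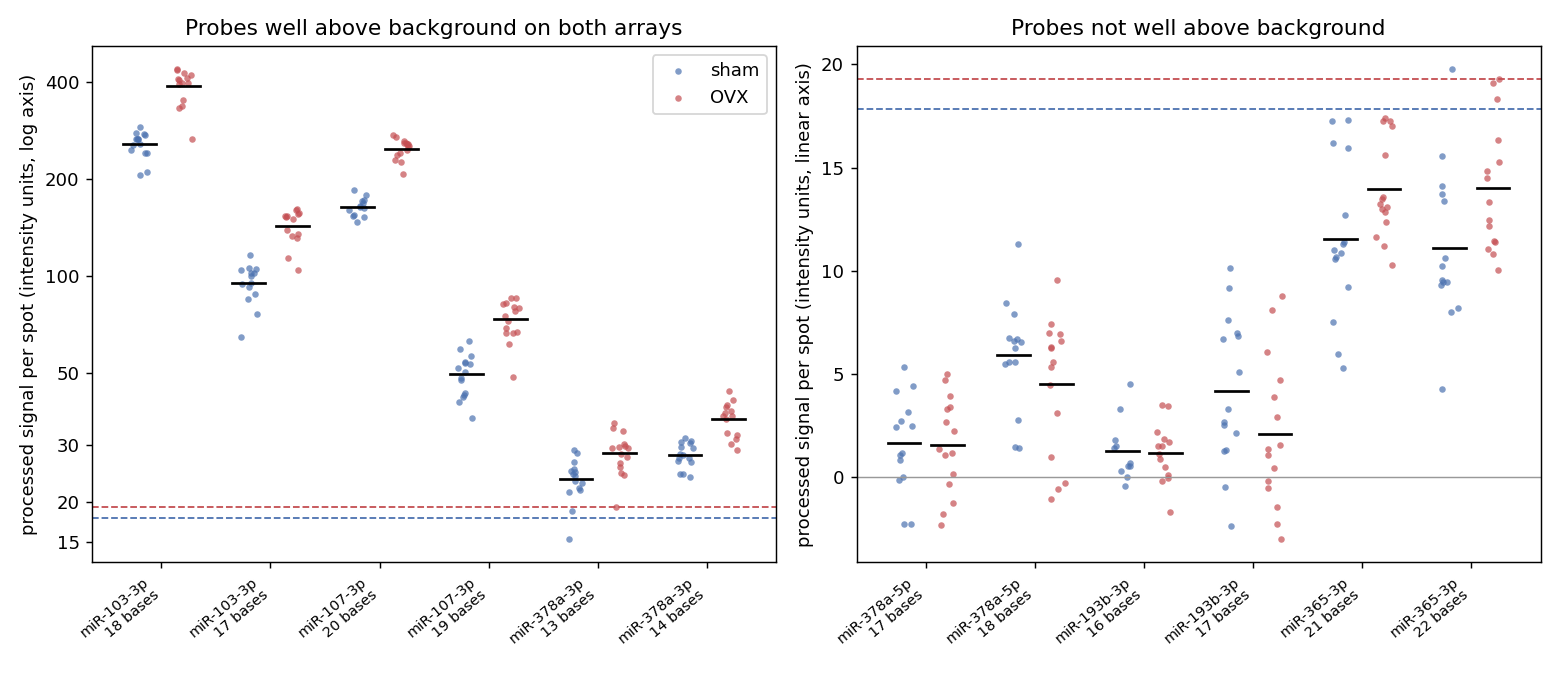
Processed signal of every usable spot (points) for the 12 probes of the 6 miRNAs, sham in blue and OVX in red, with the mean as a black bar; the left axis is logarithmic and the right axis linear. Dashed lines mark the lowest probe signal counted as well above background on each array (17.8 sham, 19.3 OVX), which the probe means of miR-378a-5p, miR-193b-3p and miR-365-3p did not reach.

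The 3 other members lay below that limit. miR-365-3p came nearest to it. Its 21-base probe had 11.5 ± 3.81 (SD of 15 spots) in sham and 13.9 ± 2.36 (SD of 15 spots) in OVX. Its 22-base probe had 11.1 ± 3.85 (SD of 14 spots) and 14.0 ± 3.10 (SD of 15 spots). These means exceeded the highest negative control spot, 9.40 in sham and 10.3 in OVX, yet 1 of 14 sham spots of the 22-base probe and none of its 15 OVX spots was well above background. A signal above the negative controls was present on both arrays, but no level that could be compared.

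miR-193b-3p, the partner of miR-365-3p, was at background. Its 16-base probe had 1.30 ± 1.47 (SD of 11 spots) in sham and 1.18 ± 1.41 (SD of 14 spots) in OVX. Its 17-base probe had 4.20 ± 3.63 and 2.11 ± 3.59 (SD of 15 spots each). Negative control spots had 1.93 ± 2.81 (SD of 982 spots) and 1.36 ± 2.86 (SD of 978 spots). Its opposite arm, miR-193b-5p, and the arms miR-365-1-5p and miR-365-2-5p were not well above background on either array. miR-193a-3p, which shares the seed ACUGGCC with miR-193b-3p, was not either, with highest probe signals of 5.35 in sham and 13.5 in OVX.

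miR-378a-5p, the opposite arm of the miR-378a hairpin, was not well above background on either array, while the 3p arm was measured. Its 17-base probe had 1.66 ± 2.32 (SD of 14 spots) in sham and 1.57 ± 2.33 (SD of 15 spots) in OVX. Its 18-base probe had 5.92 ± 2.67 (SD of 14 spots) and 4.51 ± 3.30 (SD of 15 spots). The means of this longer probe lay above 90.4% of the negative control spots in sham and 85.5% in OVX.

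Among the named relatives of miR-378a-3p, the measured probes of miR-378b and miR-378d gave signals of like size. miR-378b was lower in OVX by a log2 difference of -0.69 (spot SE 0.10) and miR-378d by -0.58 (spot SE 0.09), each measured by 1 of its 2 probes. The miR-378d probe had 22.0 ± 4.21 in sham and 29.6 ± 4.07 in OVX (SD of 15 spots each). The miR-378b probe had 24.5 ± 4.15 and 30.7 ± 6.87 (SD of 15 spots each). Of the 3 relatives, miR-378c was not well above background on either array.

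These signals overlap in sequence. The whole 14-base run of the longer miR-378a-3p probe occurs in both miR-378d probes, and 13 of its bases occur in 1 run in the probes of miR-378b and miR-378c. The target of both miR-378a-3p probes occurs without mismatch in mature miR-378d, and with 1 mismatch in miR-378b and miR-378c. The probe sequences therefore do not separate miR-378a-3p from miR-378d, and whether the signals come from 1 RNA or several was not tested. The second miR-378d probe, which also holds the run of 14 bases, had 11.1 in sham and 15.2 in OVX and was not well above background. The 2 miR-378c probes, with the run of 13 bases, had -1.11 and -1.53 in sham. The 16-base miR-378b probe had 0.283 ± 2.51 (SD of 15 spots) there, where the 17-base probe, longer by 1 base, had the 24.5 given above.

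Among all measured miRNAs, miR-378a-3p ranked 22 of 197 from the lowest difference, miR-107-3p 42 and miR-103-3p 43. The lower quartile of all differences was -0.36, and all 3 lay under it. Dim miRNAs held more low values: 19 of the 98 below the median level were at least 1.5-fold lower (19.4%), against 10 of the 99 at or above it (10.1%). miR-378a-3p belongs to the former and miR-103-3p and miR-107-3p to the latter. The part of signal level in the miR-378a-3p difference was not tested.

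**Figure D2:**
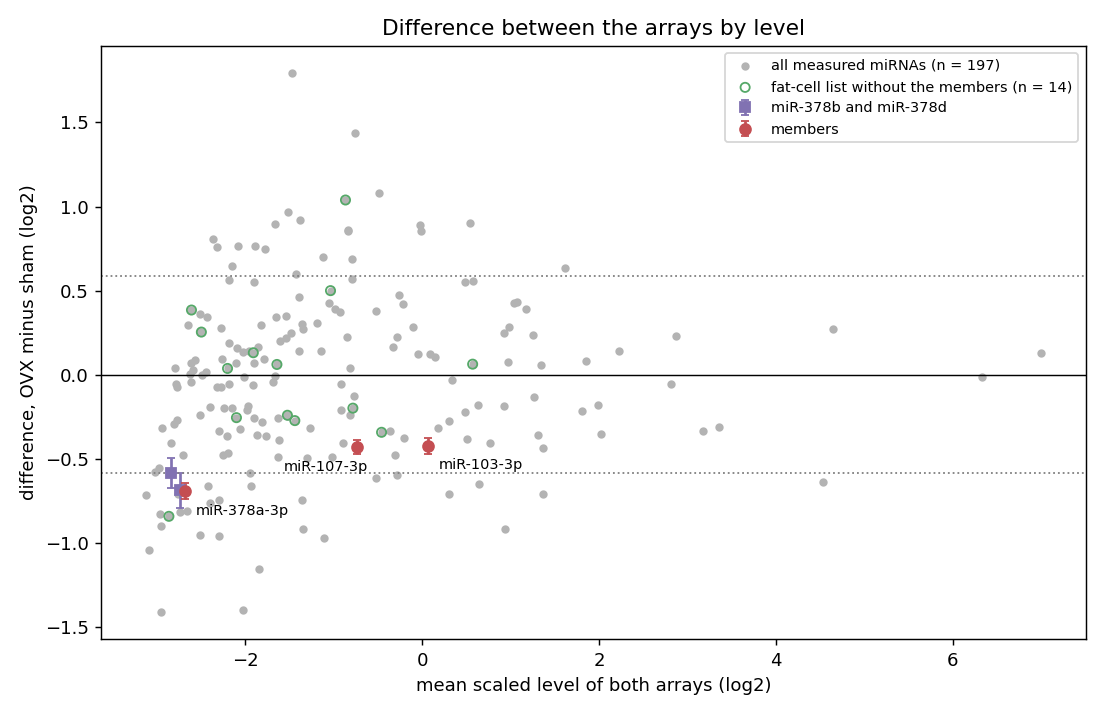
Log2 difference (OVX minus sham) against the mean scaled level for all 197 measured miRNAs, with the 3 measured members in red, miR-378b and miR-378d in purple and the fat-cell list in green rings; bars are spot SE and dotted lines mark 1.5-fold. miR-103-3p (-0.42) and miR-107-3p (-0.43) lie above the median level and miR-378a-3p (-0.69) at the dim end beside its relatives.

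The miRNAs nearest to each member in difference, among those at or above the median level, were named by rule. For miR-103-3p they were miR-107-3p (-0.43), miR-709 (-0.44) and miR-652-3p (-0.41), and for miR-107-3p they were miR-709, miR-103-3p and miR-652-3p. For miR-378a-3p they were miR-1949 (-0.71), the red-cell and muscle miRNA miR-486a-5p (-0.71) and miR-7042-5p (-0.65). miR-378a-3p itself lies below the median level, and its relative miR-378b (-0.69), also below it and so left out by the rule, was nearer. With 2 arrays this likeness is 1 number per miRNA: 8 of the other 196 miRNAs lay within 1 spot SE of miR-103-3p, 7 of miR-107-3p and 8 of miR-378a-3p.

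The miR-15/16 group, which regulates the cell cycle and apoptosis, carries the seed of miR-103 and miR-107 shifted by 1 base, as miR-16-5p shows with its seed in capitals.
mmu-miR-16-5p: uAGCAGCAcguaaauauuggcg
Of the 6 fixed members of this group, 4 were measured, and their median difference was 0.09. miR-15b-5p was at -0.34 (spot SE 0.02), miR-16-5p at 0.08 (spot SE 0.03), miR-322-5p at 0.09 (spot SE 0.04) and miR-15a-5p at 0.43 (spot SE 0.03). None was at least 1.5-fold lower or higher. miR-195a-5p and miR-497a-5p were well above background on the OVX array only. Among these 4, miR-15b-5p lay nearest to miR-103-3p and miR-107-3p, and the other three lay above 0.

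Other miRNAs reported in fat-cell formation or fat-cell metabolism went both ways. Of the 31 on the fixed list, which leaves out the members, 14 were measured, 2 were well above background on the OVX array only and 15 on neither. Of the 14, 8 lay above 0 and 6 below, with a median of 0.05 against -0.04 over all measured miRNAs. Relative to the median of all, that list median ranged from -0.07 to 0.18 over the alternatives. miR-26b-5p, an intronic miRNA of a phosphatase gene, was at 1.04 (spot SE 0.06) and was the 1 of the 14 at least 1.5-fold higher. miR-221-3p, which targets the cell-cycle inhibitor p27, was at -0.84 (spot SE 0.05) and was the 1 at least 1.5-fold lower. miR-30e-5p was at 0.50 (spot SE 0.08) and miR-34a-5p, a p53 target, at 0.39 (spot SE 0.11), each by 1 probe.

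**Figure D3:**
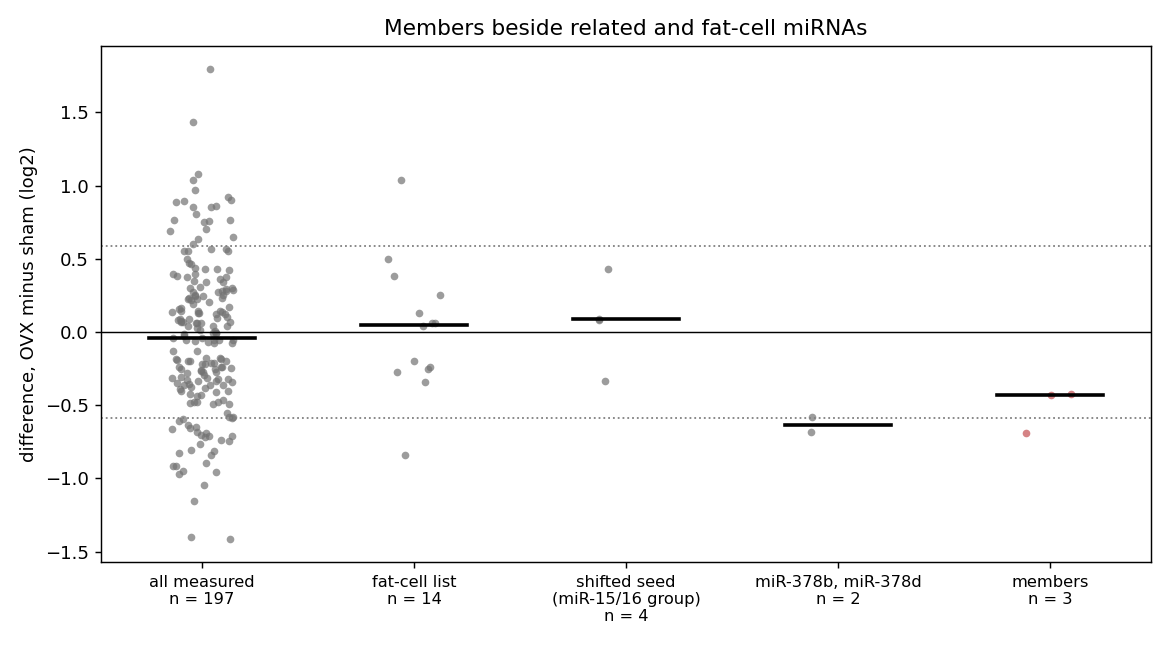
Log2 differences (OVX minus sham) of single miRNAs (points) with the median as a black bar, for all 197 measured miRNAs, 14 of the fat-cell list, 4 of the miR-15/16 group, miR-378b with miR-378d, and the 3 measured members; dotted lines mark 1.5-fold. The members and the miR-378 relatives lie below 0, and the fat-cell list spreads from -0.84 to 1.04.

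miR-378a is also abundant in muscle, and no muscle marker was well above background in OVX. Of the 6 muscle markers, miR-133a-3p and miR-133b-3p were well above background on the sham array only, and the other four on neither. The highest probe of miR-133b-3p had a signal of 26.8 in sham and 16.3 in OVX, and that of miR-133a-3p 19.5 and 10.8. The summed signal of the list was 50.8 in sham and 52.9 in OVX, or 0.393 and 0.203 of the scaling percentile. No probe behind the OVX sum was well above background, so no direction is read from it. The highest probe of miR-1a-3p had 7.09 in sham and 11.2 in OVX, that of miR-206-3p -0.48 and 7.56, and the highest probe signals of miR-208b-3p and miR-499-5p were -2.96 and -0.14 on the sham array. The part of muscle tissue in the miR-378a-3p difference was not tested. In bulk tissue, fewer cells of a type and less RNA per cell cannot be told apart.

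Differences over the array decreased with probe GC content (Spearman's rho -0.32 across the 197 miRNAs, which share the arrays and their labelling). The measured probes of miR-103-3p, miR-107-3p and miR-378a-3p had 42.8%, 46.2% and 51.9% GC, below the mean of 55.4% over all measured miRNAs. After a straight-line trend with GC was removed, the differences were -0.57, -0.54 and -0.73.

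**Figure D4:**
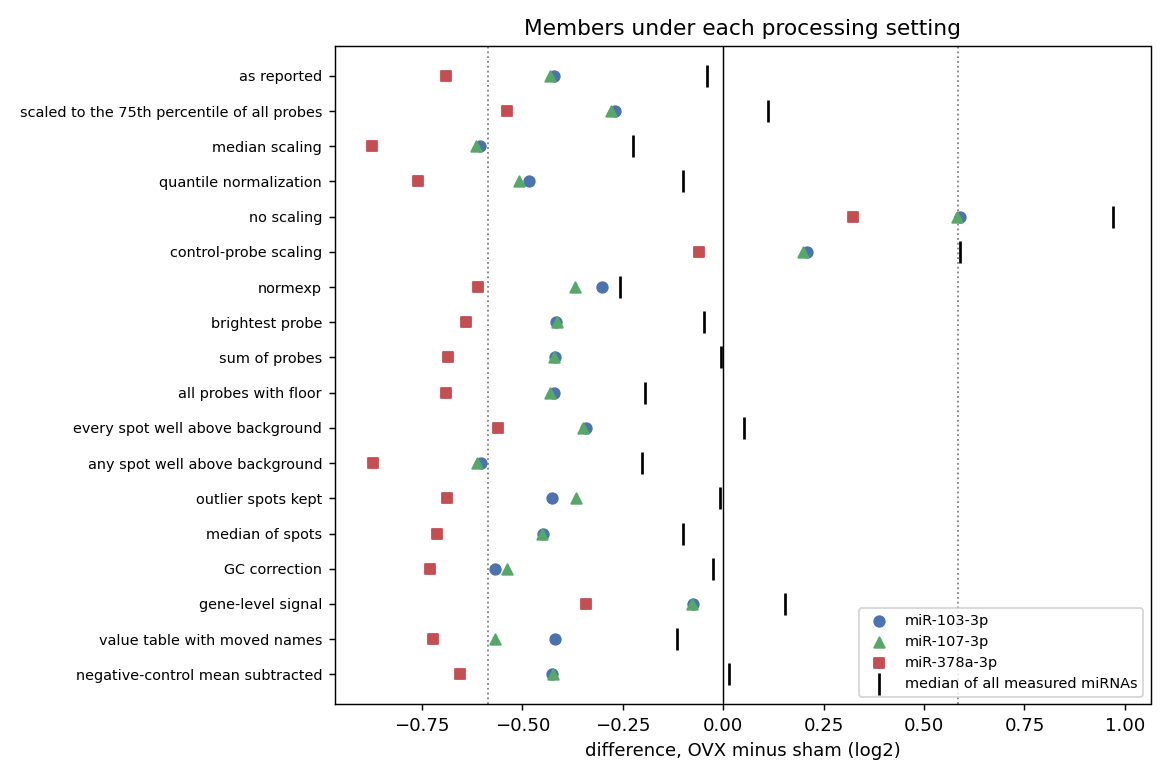
Log2 difference (OVX minus sham) of miR-103-3p (circles), miR-107-3p (triangles) and miR-378a-3p (squares) under each processing setting, with the median of all measured miRNAs as a black tick; dotted lines mark 1.5-fold. Each of the 3 lies left of the tick in every setting shown, and right of 0 without scaling (0.59, 0.58 and 0.32), as are miR-103-3p and miR-107-3p with control-probe scaling (0.21 and 0.20). Scalings other than quantile normalization move the tick and the members alike, so the order could not change there.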

How the data were processed

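The 6 members, the lists and the named-miRNA rule (all members, their arms and relatives, the largest 4 of the fat-cell list and the 3 nearest differences) were chosen with earlier results of these data known. Per the file headers, the deposited scanner files hold intensity per spot from Agilent Feature Extraction 10.7.1.1 (11.0.1.1 in the submitters' processing notes): processed, background-subtracted intensity, not normalized between arrays, and uncorrected mean and background intensity. The authors' deposited value table holds log2 values with column medians of -3.18 (sham) and -3.32 (OVX), its floors; how they were normalized and centred is not given in the sources used here. The names go with the values only when moved by 1 row (Spearman with the gene-level signal 0.99 for both arrays, against 0.04 and 0.06 as printed), and it served as an alternative only.

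Outlier-flagged spots were dropped (2.75% and 2.90%); no miRNA spot was saturated. The log2 of each probe's mean processed signal was set relative to the array's 75th percentile over 350 probes, those that were well above background on each array, and the probes of a miRNA were averaged. With 1 array per group no test was made; at least 1.5-fold and 2-fold were used as rules of size. The number of arrays limits the precision. Alternatives covered scaling, background (normexp, limma 3.58.1, offset 50), probe summaries, filters, GC content and other deposited values. The steps were tested on simulated data (Python 3.11.15, numpy 2.4.6, pandas 2.3.3), with a constant gain in brightness and as many rises as falls. The median of the unchanged miRNAs was subtracted there before scoring, so that test cannot check the choice of scaling.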

Additional observations from a re-analysis of the deposited data

Results flagged for a closer look

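One result came from values outside the comparison. Agilent's gene-level signal listed miR-365-3p as detected on the OVX array, at 7.72, and as not detected on the sham array, at its floor of 0.1. The summed probe totals were 7.72 on the OVX array and 4.81 on the sham array, and neither probe was well above background on either array.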

How the results depend on the processing

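Over 17 other settings, miR-103-3p and miR-107-3p were below 0 in 15 each and miR-378a-3p in 16. All 3 stayed below the median of all measured miRNAs in each of the 17. Scalings that add 1 constant to every miRNA could not change that place, so they add nothing to this count. How many other miRNAs stayed below the median in every setting was not counted. Relative to that median miR-103-3p was at -0.38 as reported but at -0.047 with normexp, miR-107-3p at -0.39 and -0.11, and miR-378a-3p at -0.65 and -0.35. With all probes floored these values were -0.23, -0.24 and -0.50, and with the gene-level signal -0.23, -0.23 and -0.50. miR-378a-3p was at least 1.5-fold lower in 12 of the 17 and turned above 0 without scaling (0.32). The median over the 3 measured members was -0.43 as reported. It was -0.61 with median scaling and -0.61 where any spot well above background sufficed, and all 3 members were then at least 1.5-fold lower. Of all miRNAs measured in these settings, 23.4% and 24.6% were at least 1.5-fold lower. The median over the 3 members was 0.58 without scaling, where 0 members were 1.5-fold lower and 1 was 1.5-fold higher (78.7% of all). With control-probe scaling it was 0.20 and with the gene-level signal -0.079, with 0 members 1.5-fold lower in both. The count was also 0 with the 75th percentile of all probes, with every spot required to be well above background, and at 2-fold. The scalings other than quantile normalization add 1 constant to every miRNA. The filters change which probes are averaged and which probes set the 75th percentile, and so change that constant too. For the gene-level signal the cause was not tested. Over all measured miRNAs, 29 were at least 1.5-fold lower and 22 higher as reported, 46 and 13 after median scaling, 2 and 100 after control-probe scaling, and 0 and 155 if arrays were left unscaled. No paired analysis was possible because each group is 1 array, and no replicate could be left out.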

Other observations

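In the authors' deposited value table the names as printed would change which members look present. As printed, miR-378a-5p carries 3.16 (sham) and 1.77 (OVX), and miR-103-3p, miR-107-3p and miR-378a-3p stand at the floors of -3.18 and -3.32. With the names moved by 1 row, miR-378a-3p carries 4.11 and 3.39, miR-103-3p 6.91 and 6.49, and miR-107-3p 6.18 and 5.61, while miR-378a-5p and miR-193b-3p stand at the floors. miR-365-3p is then at its floor in sham and at -0.19 in OVX.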
